A study of Rattus norvegicus with 21 samples.

Results

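Presynaptic vesicle release was followed through 8 genes, Snap25, Syt1, Syt4, Vamp1, Vamp2, Stx1a, Sv2a and Cplx1, chosen by symbol from 16245 gene symbols measured in 21 single hippocampal neurons. Each of the 8 symbols had 1 row in the deposited table, so no row had to be chosen. The neurons came from embryonic day 18 Wistar rats with a transgene in which the vesicular GABA transporter drives the fluorescent protein Venus (VGAT-Venus). They were cultured for 17 days in vitro, recorded with a patch electrode, and the contents aspirated through it were sequenced. There were 5 pyramidal neurons from cultures that kept their glia. There were 5 GABAergic neurons from cultures purified with the antimitotic agents FdU and U (5 µM, added 24 h after dissection and removed after 36 h) and given oligodendrocyte conditioned medium (OCM), collected from oligodendrocytes of postnatal rat cortex in culture, on day 3 in vitro. A further 5 GABAergic neurons came from purified cultures without OCM, and 6 from cultures that kept their glia. All 4 groups shared the strain, the transgene and the time in culture, and both purified groups, with and without OCM, had the antimitotic agents. Since the labels name neither animals nor dishes, the cells of a group count together as 1 sample. Therefore no p-value or standard error is reported, and an SD or range gives cell-to-cell spread, which may be technical.

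A synaptic vesicle fuses with the presynaptic membrane when SNARE proteins of the vesicle (the synaptobrevins, encoded by Vamp1 and Vamp2) zip into a bundle with SNARE proteins of the plasma membrane (syntaxin 1A, encoded by Stx1a, and SNAP-25, encoded by Snap25). Complexin 1, the product of Cplx1, binds the assembled bundle and synaptotagmin 1, the product of Syt1, senses the calcium that triggers fusion. Synaptotagmin 4, the product of Syt4, is known from dense core and other regulated vesicles and lacks the usual calcium binding of its first C2 domain. SV2A is a glycoprotein of the vesicle membrane and the binding site of the antiepileptic drug levetiracetam. GABAergic interneurons use this machinery to release GABA, and pyramidal neurons use it to release glutamate.

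In the rn6 build the genes lie at chr3:129697408-129788416 (Snap25), chr7:50086644-50638798 (Syt1), chr18:24172580-24181991 (Syt4), chr4:157726941-157733764 (Vamp1), chr10:55675537-55679403 (Vamp2), chr12:24682050-24710002 (Stx1a), chr2:198321182-198336559 (Sv2a) and chr14:2194984-2226609 (Cplx1), as the deposited table gives them. Upstream sequences are shown for 3 of them: Vamp1 and Syt4, whose detection differed most between the culture conditions, and Vamp2, the paralogue of Vamp1 that was detected in every cell. Each is the stretch of 250 bases that ends 1 base before the annotated start, in the direction of the gene, from RefSeq on assembly GRCr8, at chr4:159698644-159698893 on the plus strand (Vamp1), chr10:54292539-54292788 on the plus strand (Vamp2) and chr18:23320864-23321113 on the minus strand (Syt4). Capitals mark the cyclic AMP response element TGACGTCA and its core site TGACG, searched on both strands.
Vamp1: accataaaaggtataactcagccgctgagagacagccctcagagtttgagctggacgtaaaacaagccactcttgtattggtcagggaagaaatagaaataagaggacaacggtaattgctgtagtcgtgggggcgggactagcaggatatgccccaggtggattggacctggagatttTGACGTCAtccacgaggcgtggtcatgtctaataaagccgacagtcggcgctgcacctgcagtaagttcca
Vamp2: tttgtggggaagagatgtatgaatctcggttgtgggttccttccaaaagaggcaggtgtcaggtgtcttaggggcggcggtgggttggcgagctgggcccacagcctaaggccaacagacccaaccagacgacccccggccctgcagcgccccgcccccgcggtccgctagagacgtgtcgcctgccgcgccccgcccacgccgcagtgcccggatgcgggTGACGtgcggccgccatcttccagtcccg
Syt4: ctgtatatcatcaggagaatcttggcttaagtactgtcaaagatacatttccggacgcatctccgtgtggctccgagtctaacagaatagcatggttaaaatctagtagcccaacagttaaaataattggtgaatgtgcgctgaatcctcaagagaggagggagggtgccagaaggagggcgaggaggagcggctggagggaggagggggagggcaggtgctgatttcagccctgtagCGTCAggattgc
The whole element was present in the Vamp1 sequence, with its first base 71 bases before the start, and in none of the other members with an entry, which was 7 of 8. The core site, which also lies within the whole element, was present in Vamp1, Vamp2, Syt4 and Cplx1. In the same window, 1.59% of 33469 rat promoters held the whole element and 18.2% held the core site. These matches describe letters and not binding.

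The values are read counts divided by 1 factor per cell by the authors, called normalized counts below. Cells held between 1817671 and 25160911 reads, fewer in purified neurons (2442814 to 7821375) than in glia-cultured GABAergic neurons (5587208 to 25160911). Sample titles begin with S, P or ech, and nothing in the labels says what these stand for. All 5 OCM-treated, 4 of 5 purified and 2 of 5 pyramidal neurons were titled S, against 1 of 6 glia-cultured GABAergic neurons, so title and culture cannot be told apart in much of what follows. The neuron types matched their markers. The 8 measured GABAergic markers, among them Gad1, Gad2 and Slc32a1, summed to at most 927 normalized counts in a pyramidal neuron, against at least 21195.5 in any GABAergic neuron. Pyramidal cells 3 and 4 also carried oligodendrocyte transcripts (324915 and 103570.0 normalized counts summed over 11 markers, against 0 to 1604 in the other 3 pyramidal cells), and cell 3 had 67323 over 9 astrocyte markers. The part of these transcripts in the pyramidal values was not tested. Without both cells, only the Snap25 difference and the number of members at least 2-fold lower are given below. The other pyramidal results include both cells and may differ without them. Over 10 microglia markers, cell 3 had 23414 and cell 4 had 515 normalized counts, against 0 in the other 3 pyramidal cells and in all 6 glia-cultured GABAergic neurons.

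The 8 genes together took a smaller share of each cell's normalized counts in purified neurons, with or without OCM, than in any glia-cultured GABAergic neuron. The summed share was 0.496%, 0.493%, 0.567%, 0.696% and 0.627% in the 5 OCM-treated neurons. In the 5 purified neurons it was 0.306%, 0.289%, 0.348%, 0.466% and 0.532%. In the 6 glia-cultured GABAergic neurons it was 0.977%, 1.06%, 0.853%, 0.784%, 0.824% and 0.894%. Neither purified group overlapped the glia-cultured one, and the OCM-treated and purified ranges overlapped in part. Most of the sum came from Snap25, Vamp2 and Cplx1, so it says little of the other members. Their means were 32974, 13482 and 17223 of 71715 normalized counts in glia-cultured GABAergic neurons. In purified neurons without OCM they were 9797, 9516 and 6994 of 27806. In pyramidal neurons the share was 0.685%, 0.455%, 0.0661%, 0.471% and 0.336%, with the lowest value in cell 3. Of the 8 genes, 2 to 6 were above 0 in a pyramidal neuron, 6 to 8 in an OCM-treated, 5 or 6 in a purified and 7 or 8 in a glia-cultured GABAergic neuron. With every cell thinned to the smallest total, 1817671 reads, the medians were 6, 7, 5 and 7.5 genes, against 6, 7, 6 and 7.5 unthinned, in the order pyramidal, OCM-treated, purified and glia-cultured GABAergic.

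**Figure D1:**
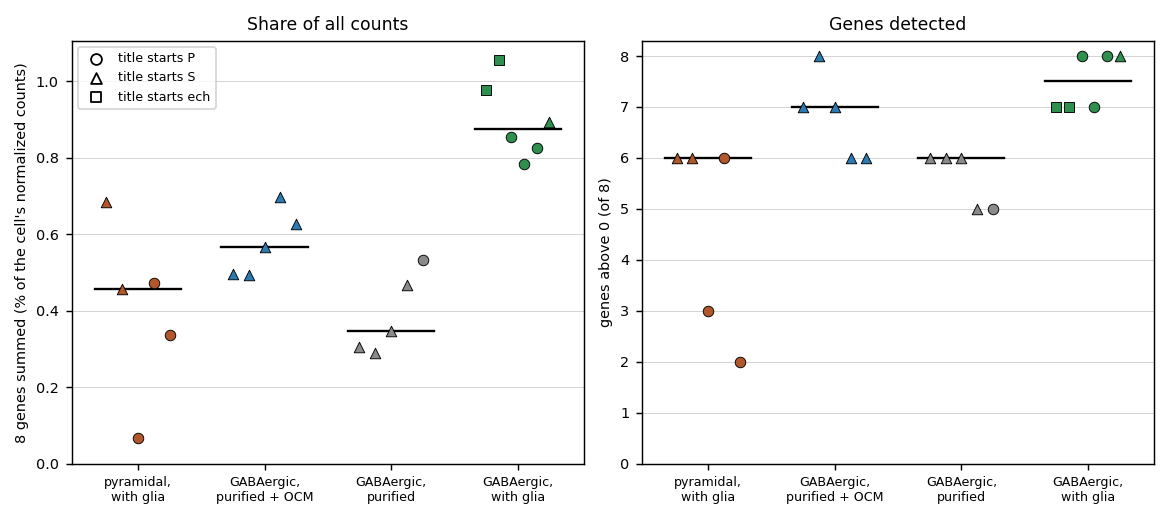
Left, the 8 genes' summed normalized counts as a percentage of all normalized counts of a cell, and right, how many of the 8 were above 0, for each of 21 neurons by group (symbols give the first letters of the sample title, lines the group median). The 6 glia-cultured GABAergic neurons lie at 0.784% to 1.06%, above all 10 other GABAergic neurons, which lie at 0.289% to 0.696%. Snap25, Vamp2 and Cplx1 make up most of the sum.

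Among the plasma membrane SNAREs, Snap25 was detected in all 21 cells and was lower in both purified groups than in glia-cultured GABAergic neurons. It had 32460.2, 25773, 3590.0, 15310.1 and 19057 normalized counts in the pyramidal neurons. OCM-treated neurons had 15874, 15437, 14532, 21276 and 24993, and purified neurons had 6339.9, 7111, 11775, 14639 and 9119. Glia-cultured GABAergic neurons had 34453, 35332, 44072, 29018, 28040.1 and 26926. Every OCM-treated and every purified neuron was below every glia-cultured GABAergic neuron, whereas pyramidal cell 1 lay within the glia-cultured GABAergic range. The highest purified value, 14639, was just above the lowest OCM-treated value, 14532. The mean was 18422 ± 4524 (SD) in the 5 OCM-treated, 9797 ± 3427 in the 5 purified and 32974 ± 6442 in the 6 glia-cultured GABAergic neurons.

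Stx1a was patchy in every group. Pyramidal neurons had 2040.5, 236, 0, 1816 and 0 normalized counts, and OCM-treated neurons had 0, 167, 444, 0 and 0. Purified neurons had 590.0 in cell 2 and 0 in the other 4, against 0, 0, 485, 0, 83.2 and 846 in glia-cultured GABAergic neurons. The groups overlapped throughout, and only the pyramidal group held values above 846. It was at 0 in 12 of 21 cells. In cells above 0 it averaged 1364 in 3 pyramidal neurons, against 471 in 3 glia-cultured GABAergic neurons.

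Of the vesicle SNAREs, Vamp2 was present in every cell and close between the groups, while Vamp1 was present in all cells of the glia-cultured GABAergic group alone. Vamp2 had 19646, 17717, 1968, 13632 and 8428 normalized counts in pyramidal neurons and 6459, 9009, 13601, 8354 and 13586 in OCM-treated neurons. It had 8011, 8192, 5327, 13865 and 12185 in purified neurons and 12685, 19786, 16175, 6256, 9240.2 and 16750.2 in glia-cultured GABAergic neurons. All 4 groups overlapped, and the lowest value was again in pyramidal cell 3. Vamp1 had 949 in pyramidal cell 4 and 0 in the other 4 pyramidal neurons. OCM-treated neurons had 418, 204, 1.22, 0 and 0, where 1.22 stands for 2 reads, and purified neurons had 0, 0, 526, 0 and 1226. Glia-cultured GABAergic neurons had 1286, 1394, 578, 1784, 1673 and 1270.5, so all OCM-treated neurons lay below them. In the 2 purified neurons with any Vamp1, the level lay just below and within the glia-cultured range. A cell with 0 reads had a floor of 3 reads, which was 0.909 to 17.7 normalized counts over the 21 cells. The value of 1.22 lies within that range, and the other values above 0 were at least 204. Reads come from amplified cDNA without stated molecular identifiers, and such floors and intervals cover counting error only.

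Expressed as a share of Vamp1 plus Vamp2 counts within a cell, a pairing chosen after the values were seen, Vamp1 took 3.45% to 22.2% (median 8.13%) in glia-cultured GABAergic neurons. The highest share was 6.51% in pyramidal, 6.08% in OCM-treated and 9.14% in purified neurons, and the median was at or near 0 in each of those groups. This is a share of counts, which also depends on transcript length, so it is compared between groups only.

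**Figure D2:**
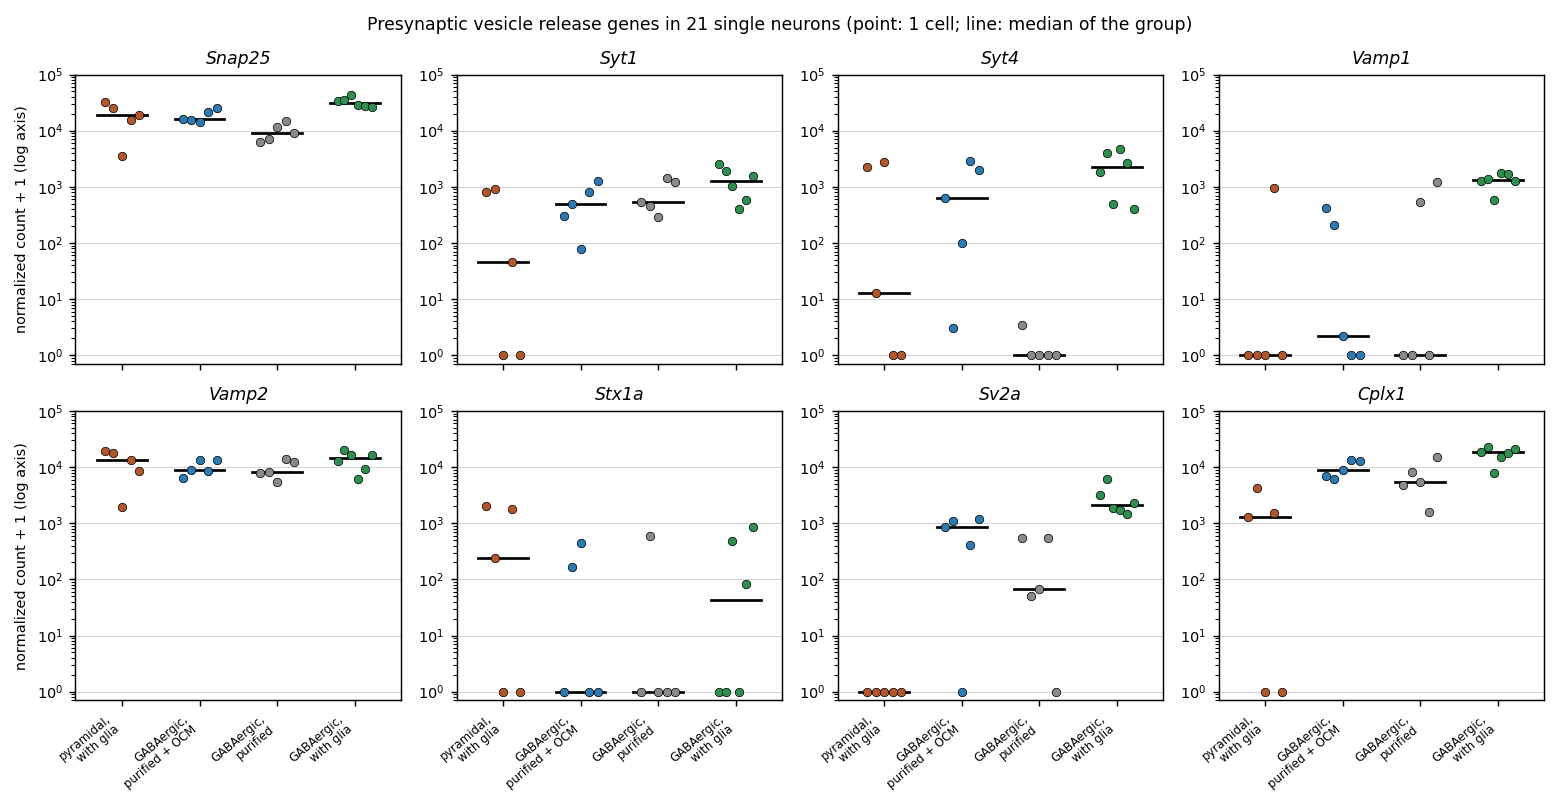
Normalized count plus 1 on a log axis for each of the 8 genes, 1 point per neuron and a line at the group median. Snap25 and Vamp2 are on in all 21 neurons. Syt4 reaches at most 2.47 in purified neurons, and Sv2a is 0 in all pyramidal neurons.

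Syt4 gave the sharpest contrast among the GABAergic groups. Glia-cultured GABAergic neurons all had it, whereas 4 of 5 purified neurons had none. Pyramidal neurons had 2214, 11.8, 2822, 0 and 0 normalized counts, and OCM-treated neurons had 629, 2.03, 100.2, 2889 and 1962. Purified neurons had 2.47, 0, 0, 0 and 0, which is 2 reads in the whole group. Glia-cultured GABAergic neurons had 1829, 4043, 484, 4768, 2659 and 398. Of the OCM-treated neurons, 3 lay within the glia-cultured range, cell 3 lay below it, and cell 2, with 4 reads, lay within the purified range. The purified mean was 4780-fold below the glia-cultured one (95% Poisson interval 1323 to 39471) and the OCM-treated mean was 2258-fold above the purified one (625 to 18645). In the thinned counts, the reads of purified cell 1 and OCM-treated cell 2 were lost and no other member lost a cell.

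Syt1 overlapped between all groups. It had 822, 902, 0, 45.5 and 0 normalized counts in pyramidal neurons and 297, 495, 77.6, 822 and 1290.3 in OCM-treated neurons. Purified neurons had 538, 459.8, 285, 1436 and 1224, against 2593, 1925, 1048, 403, 582 and 1538 in glia-cultured GABAergic neurons. It was above 0 in all 16 GABAergic neurons. The 3 glia-cultured GABAergic cells titled P held the lowest 3 values of their group.

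Sv2a separated glia-cultured GABAergic neurons from the pyramidal neurons and from both purified groups. It had 0 reads in all 5 pyramidal neurons. OCM-treated neurons had 868, 1083, 0, 412 and 1174 normalized counts, and purified neurons had 548, 50.2, 65.8, 547 and 0. Glia-cultured GABAergic neurons had 3147, 6101, 1900.1, 1692, 1438 and 2269, all above every other cell of the series. Taking 3 reads over all pyramidal cells as the limit, the pyramidal mean was at least 779-fold lower than the glia-cultured GABAergic mean. Of its paralogues, Sv2b had reads in 2 of 5 pyramidal neurons (group mean 278 ± 621 (SD), highest 1388) and Sv2c was at 0 in all 5. Among GABAergic neurons with reads of the family, Sv2a took 96.0% to 100% of them.

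Cplx1 was in all 16 GABAergic neurons and was lower in pyramidal neurons than in glia-cultured GABAergic neurons. Pyramidal neurons had 1285, 4181, 0, 1545 and 0 normalized counts, and OCM-treated neurons had 6995, 6109, 8758, 13125 and 12734. Purified neurons had 4792, 8204, 5332, 1570.4 and 15069, against 18499.7, 23169.6, 7964, 14863, 18121 and 20723 in glia-cultured GABAergic neurons. Every pyramidal neuron lay below every glia-cultured GABAergic neuron, and glia-cultured cell 3, the lowest of its group, lay within the range of both purified groups. Within the complexin family (Cplx1 to Cplx3, shares of counts), Cplx1 took 66.9% to 98.0% in glia-cultured GABAergic neurons, a median of 98.2% in OCM-treated and 92.6% in purified neurons, and 0% to 99.9% in the 4 pyramidal neurons with any reads of the family.

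**Figure D3:**
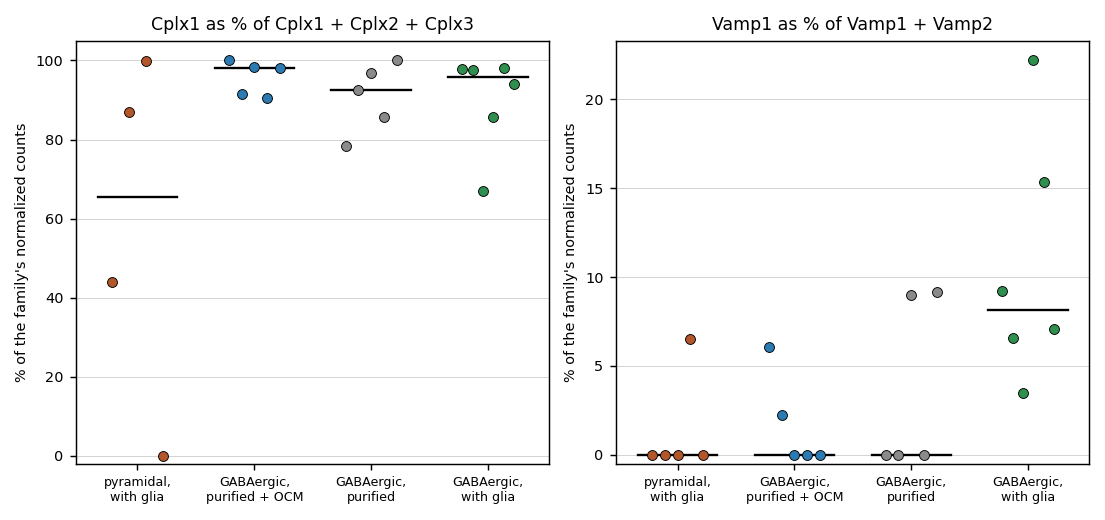
Share of Cplx1 in the complexin family's counts and of Vamp1 in the Vamp1 plus Vamp2 counts, 1 point per neuron with reads of the family and a line at the group median. Vamp1 takes 3.45% to 22.2% in glia-cultured GABAergic neurons and has a median at or near 0 in the other groups.

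The comparison of pyramidal with GABAergic neurons, both from cultures with glia, asks how the release machinery differs between the neuron types. The difference used here and below is the mean over cells of log2(normalized count + 1) in the first group minus that in the second, over symbols above 0 in at least 3 cells of the comparison. Such a difference mixes level and detection, so the ratio of group means is given beside it. At least 2-fold lower were 6 of 8 members (Snap25, Syt1, Syt4, Vamp1, Sv2a and Cplx1), against 64.2% of all 6571 symbols compared, and 1 member, Stx1a, was at least 2-fold higher, against 13.3%. Among the 2704 abundant symbols, with a mean of at least 500 over the 21 cells, 66.1% were at least 2-fold lower, as were 6 of the 7 members in that class. The share of members was thus near the background. All pyramidal cells lay below all glia-cultured GABAergic cells for Sv2a and Cplx1, as they did for 1.84% of symbols. Such separation needs a gene above 0 in every cell of the higher group. The symbols compared, here and below, did not have to meet this, so these shares are no like-for-like background. The members' median difference was -5.26 (unchanged with Sv2a at its lower bound), against -2.05 over all symbols. Vamp1 differed by -8.32 (ratio of means 7.01-fold lower), Cplx1 by -7.41 (12.3-fold lower), Syt4 by -5.41 (2.34-fold lower), Syt1 by -5.11 (3.81-fold lower), Snap25 by -1.07 (1.71-fold lower), Vamp2 by -0.40 (1.10-fold lower) and Stx1a by 1.77 (3.47-fold higher). Vamp2 was within 2-fold here, but differed by -1.33 when cells were scaled to the same upper quartile.

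Single cells weighed on these values. Without pyramidal cells 3 and 4 the Snap25 difference was -0.37 and 5 members were at least 2-fold lower. The share of all symbols past 2-fold was not recomputed without these cells. With cells titled S only, which leaves 2 pyramidal and 1 glia-cultured GABAergic neuron, the median was -1.04, Snap25 differed by 0.10 and Stx1a by -0.28, while Vamp1 differed by -10.31 and Cplx1 by -3.16. Stx1a dropped below 2-fold without any 1 of pyramidal cells 1 and 4 and glia-cultured GABAergic cells 1, 2 and 4, with 0 members then higher.

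Over the other 7 gene lists of the pathway, 59 of 82 measured genes (72%) were at least 2-fold lower and 6 (7.32%) higher, near the 64.2% and 13.3% of all symbols. Of the fusion machinery besides the members, 7 of 10 measured genes were at least 2-fold lower and 0 higher in pyramidal neurons (median difference -2.23). Nsf, the ATPase that takes SNARE bundles apart, averaged 827 ± 937 normalized counts (SD) in pyramidal and 2467 ± 1057 in glia-cultured GABAergic neurons, while Napa, an adaptor of Nsf, averaged 4157 ± 1895 and 2125 ± 728. Of the other calcium sensors 4 of 6 were lower and 1 higher (median -2.96), the higher one being Syt5 with 2749.6 ± 2052 in pyramidal and 1132 ± 898 in glia-cultured GABAergic neurons. Of the other vesicle proteins 11 of 14 were lower (median -1.67). Of the active zone scaffold 7 of 9 were lower and 2 higher (median -1.43), of vesicle recycling 8 of 16 lower and 0 higher (median -0.72), of dense core vesicle genes 9 of 10 lower and 0 higher (median -4.02), and of SNAREs of other membranes 13 of 17 lower and 2 higher (median -2.69).

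The comparison of purified with glia-cultured GABAergic neurons asks what the release machinery looks like in cultures purified of glia. Only the purified cultures had the antimitotic agents, so the absence of glia and the agents cannot be told apart. All 8 members had negative differences, and Snap25, Syt4 and Sv2a did not overlap between the groups. At least 2-fold lower were 6 of 8 members (all but Syt1 and Vamp2), against 64.4% of 6302 symbols, and 0 were at least 2-fold higher, against 11%. Of abundant symbols 61.8% were lower, as were 5 of 7 members in that class. Complete separation, with all purified cells lower, was found for 3 of 8 members and 1.51% of symbols. That share also counts symbols at 0 in some glia-cultured cells, which could not separate in this way. The members' median difference, -2.07, was near that of all symbols, -2.13, so the members as a group stood where the median gene stood. They spread widely around it: Syt4 differed by -10.30, Vamp1 by -6.44 (ratio of means 3.80-fold lower), Sv2a by -5.25 (11.4-fold lower), Stx1a by -2.33 (2.00-fold lower), Snap25 by -1.80 (3.37-fold lower), Cplx1 by -1.58 (2.46-fold lower), Syt1 by -0.75 (1.71-fold lower) and Vamp2 by -0.48 (1.42-fold lower). Scaled to the same upper quartile, Syt1 differed by -1.38 and Vamp2 by -1.11. Leaving out any 1 cell kept the Syt4 difference between -10.71 and -9.99, that of Snap25 between -1.96 and -1.66, and that of Sv2a between -6.03 and -3.76.

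With cells titled S only, the comparison set 4 purified neurons against 1 glia-cultured neuron. The median was then -2.97 with 8 members at least 2-fold lower, Syt4 at -8.19, Sv2a at -3.66 and Snap25 at -1.52. The share of all symbols past 2-fold was not recomputed for these cells, so that count has no background. Rows above 0 were also fewer in purified neurons (2573 to 4065) than in glia-cultured GABAergic neurons (3760 to 8652), which moves with the differences of the genes that were at 0 in some cells. With the thinned counts the differences of all 8 members had the same sign, at -10.64 for Syt4, -5.34 for Sv2a and -1.80 for Snap25.

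Over the other 7 lists, 57 of 82 genes (69.5%) were at least 2-fold lower and 5 (6.1%) higher in purified neurons, near the 64.4% and 11% of all symbols. Of the other fusion machinery 8 of 10 genes were at least 2-fold lower and 0 higher (median -3.68). Nsf averaged 254 ± 361 normalized counts in purified and 2467 ± 1057 in glia-cultured GABAergic neurons. Of the other calcium sensors 6 of 6 were lower (median -3.47, or -4.97 with the 2 genes at 0 in purified neurons at their bound). Of these, Rph3a, which encodes the Rab3 effector rabphilin, averaged 15.8 ± 28.1 in purified and 491 ± 533 in glia-cultured GABAergic neurons. Of the other vesicle proteins 7 of 14 were lower and 2 higher (median -1.03). Rab3b averaged 3297 ± 4601 in purified and 954 ± 934 in glia-cultured GABAergic neurons, and Atp6v0c, a subunit of the proton pump that energizes the vesicle, averaged 26533 ± 5257 and 26198 ± 7735. Of the active zone scaffold 7 of 9 were lower and 0 higher (median -2.93), of vesicle recycling 10 of 16 lower and 1 higher (median -2.08), and of SNAREs of other membranes 11 of 17 lower and 2 higher (median -1.74). The higher recycling gene was Cltc, the clathrin heavy chain, with 14960.3 ± 11700.0 in purified and 7879 ± 4576 in glia-cultured GABAergic neurons. Of the dense core vesicle genes, which Syt4 is associated with, 8 of 10 were lower and 0 higher (median -3.26). Scg2, the precursor of secretoneurin, averaged 4629 ± 5016 in purified and 43567 ± 48738 in glia-cultured GABAergic neurons, while Scg5 averaged 3366 ± 1867 and 3448 ± 1905.

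**Figure D4:**
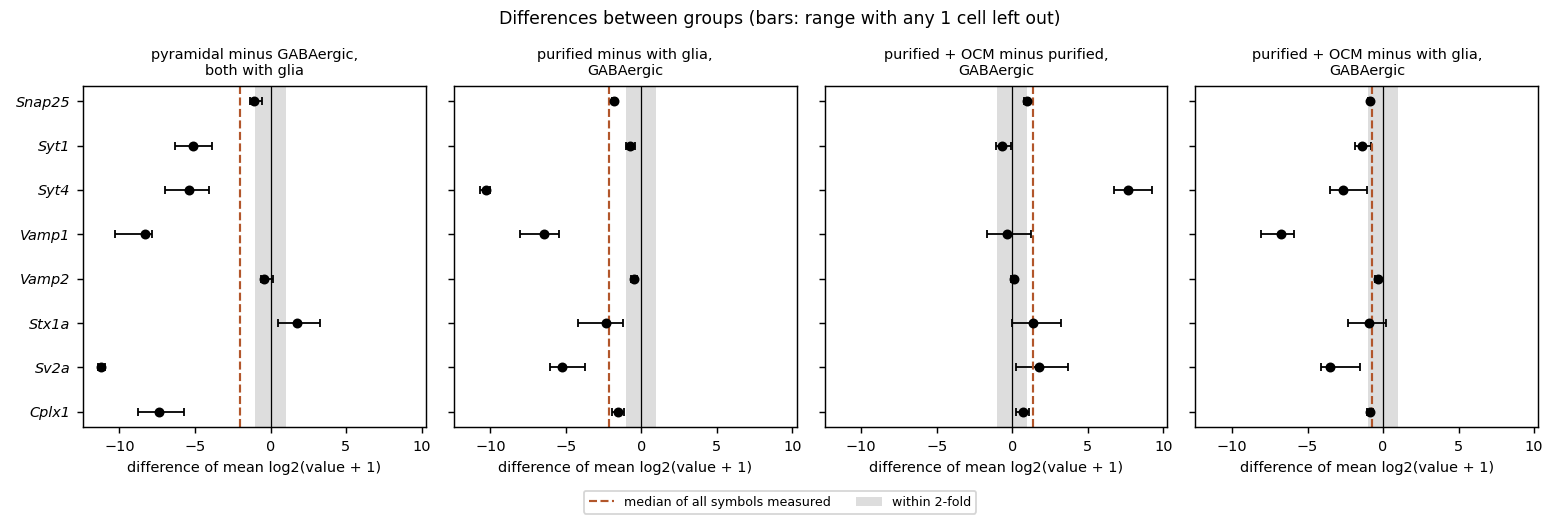
Difference of the mean log2(normalized count + 1) for each of the 8 genes in 4 comparisons (first group minus second), with bars for the range when any 1 cell is left out, a grey band for differences within 2-fold and a dashed line for the median of all symbols. The Syt4 points lie at -10.30 for purified minus glia-cultured and at 7.64 for OCM-treated minus purified neurons.

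The comparison of OCM-treated with purified GABAergic neurons asks what factors from oligodendrocytes change in neurons without glia. At least 2-fold higher were 3 of 8 members (Syt4, Stx1a and Sv2a), against 56.0% of 5143 symbols, and 0 were at least 2-fold lower, against 16.4%. Of abundant symbols 53.7% were higher, as were 2 of 7 members in that class. The members' median difference, 0.84, was below that of all symbols, 1.40. No member separated completely with OCM-treated cells higher, as 0.817% of symbols did. Syt4 differed by 7.64, with a leave-one-out range of 6.77 to 9.24. Sv2a differed by 1.76 (ratio of means 2.92-fold higher), with a leave-one-out range of 0.26 to 3.70. Stx1a differed by 1.40, but its group means were 122 ± 194 in OCM-treated and 118 ± 264 in purified neurons, a ratio of 1.04, so that difference reflects 2 cells above 0 against 1. Snap25 differed by 0.95 (1.88-fold higher), Cplx1 by 0.73 (1.36-fold higher), Vamp2 by 0.12 (1.07-fold higher), Vamp1 by -0.35 (2.81-fold lower) and Syt1 by -0.67 (1.32-fold lower).

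Scaling to the same upper quartile took Snap25 to 1.59, Cplx1 to 1.38 and Vamp1 to 0.07, with 5 members at least 2-fold higher. The members' median was then 1.48, against 1.82 over all symbols, and the share of all symbols past 2-fold was not recomputed. Among cells titled S, which are 5 OCM-treated and 4 purified neurons, the median was 0.94, Syt4 differed by 7.55, Sv2a by 0.26 and Vamp1 by 1.25. The Sv2a difference thus depended on single cells at 0, in both directions. Without purified cell 5, titled P and at 0, it was 0.26. Without OCM-treated cell 3, also at 0, it was 3.70. OCM-treated neurons were deeper (5730139 to 12967563 reads) than purified ones, and in the thinned counts Syt4 differed by 7.72.

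Over the other 7 lists, 42 of 75 genes (56%) were at least 2-fold higher and 9 (12%) lower with OCM, at or near the 56.0% and 16.4% of all symbols. Of the other fusion machinery 4 of 9 genes were at least 2-fold higher and 0 lower (median 0.97), with Nsf at 868 ± 506 normalized counts in OCM-treated and 254 ± 361 in purified neurons. Of the other calcium sensors 6 of 7 were higher and 0 lower (median 1.99). Among them, Syt3 averaged 506 ± 472 in OCM-treated neurons and was at 0 reads in all 5 purified neurons. Of the other vesicle proteins 5 of 14 were higher and 1 lower (median 0.44), of the active zone scaffold 4 of 7 higher and 2 lower (median 1.32), and of vesicle recycling 8 of 16 higher and 2 lower (median 1.05). Of the dense core vesicle genes 6 of 8 were higher and 0 lower (median 1.78), with Scg2 at 20134 ± 7340.4 in OCM-treated and 4629 ± 5016 in purified neurons. Of SNAREs of other membranes 9 of 14 were higher and 4 lower (median 1.42).

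**Figure D5:**
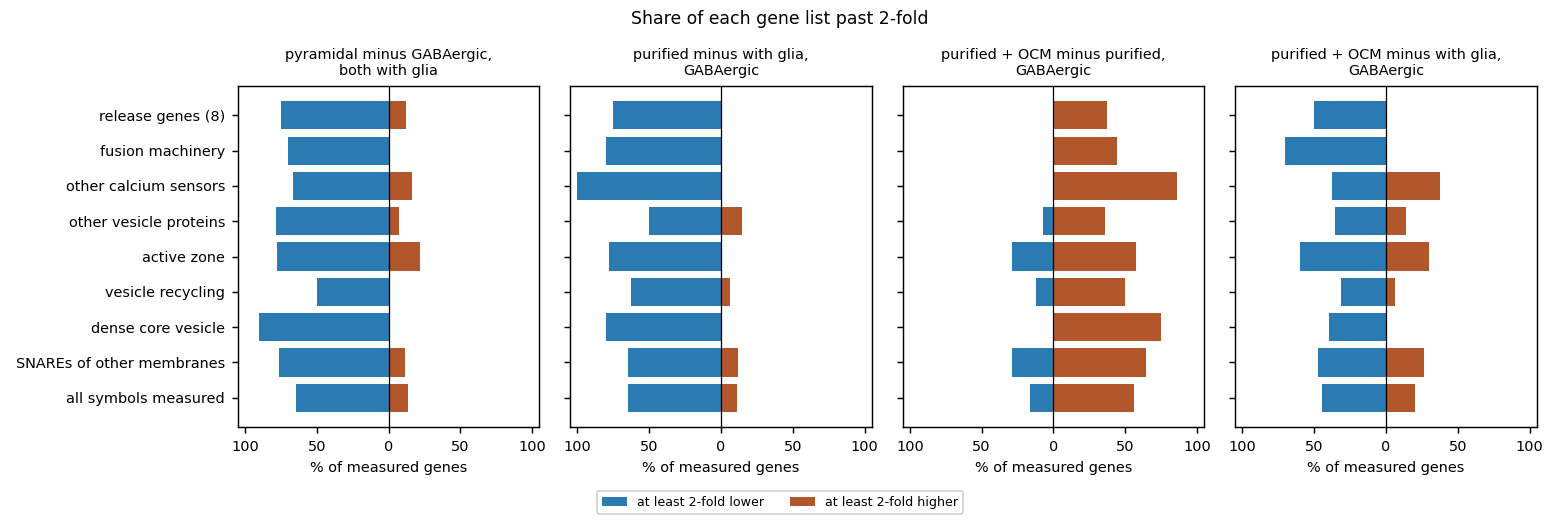
Share of the measured genes of each list that were at least 2-fold lower (left of 0) or higher (right of 0) in 4 comparisons, with all symbols measured in the bottom row. The 8 release genes are 6 of 8 lower in purified against glia-cultured neurons, where 64.4% of all symbols are lower.

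The comparison of OCM-treated with glia-cultured GABAergic neurons asks how far purified neurons with OCM match those with glia. Here too, only the purified cultures had the antimitotic agents. At least 2-fold lower were 4 of 8 members (Syt1, Syt4, Vamp1 and Sv2a), against 44.4% of 6772 symbols, and 0 were at least 2-fold higher, against 20.3%. Of abundant symbols 38.1% were lower, as were 4 of 7 members in that class. Snap25, Vamp1 and Sv2a were lower in every OCM-treated cell than in any glia-cultured cell, as 0.517% of symbols were. Symbols at 0 in some glia-cultured cells, which could not separate so, are counted in that share. The members' median difference was -1.18, against -0.72 over all symbols. Vamp1 differed by -6.79 (ratio of means 10.7-fold lower), Sv2a by -3.50 (3.90-fold lower), Syt4 by -2.66 (2.12-fold lower), Syt1 by -1.42 (2.26-fold lower), Stx1a by -0.94 (1.93-fold lower), Snap25 by -0.85 (1.79-fold lower), Cplx1 by -0.84 (1.80-fold lower) and Vamp2 by -0.36 (1.32-fold lower). Leaving out any 1 cell moved Vamp1 between -8.09 and -5.91 and Sv2a between -4.11 and -1.56. With cells titled S only, 5 OCM-treated against 1 glia-cultured neuron, the median was -1.54, Vamp1 differed by -6.80, Sv2a by -3.40, Syt4 by -0.64 and Snap25 by -0.58. This comparison shares its OCM-treated and glia-cultured cells with those above, so the sets of differences are not independent.

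Over the other 7 lists, 39 of 87 genes (44.8%) were at least 2-fold lower and 14 (16.1%) higher, near the 44.4% and 20.3% of all symbols. Of the other fusion machinery 7 of 10 genes were at least 2-fold lower and 0 higher in OCM-treated than in glia-cultured GABAergic neurons (median -1.59). Of the other calcium sensors 3 of 8 were lower and 3 higher (median -0.34), of the other vesicle proteins 5 of 14 lower and 2 higher (median -0.72), and of the active zone scaffold 6 of 10 lower and 3 higher (median -2.12). Rph3a averaged 27.97 ± 37.28 normalized counts in OCM-treated and 491 ± 533 in glia-cultured GABAergic neurons. The vesicle protein synaptophysin, encoded by Syp, averaged 3516 ± 2413 and 9015 ± 3094. Of vesicle recycling 5 of 16 were lower and 1 higher (median -0.46), of dense core vesicle genes 4 of 10 lower and 0 higher (median -0.70), and of SNAREs of other membranes 9 of 19 lower and 5 higher (median -0.85).

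Across the 16 GABAergic neurons the members varied together mainly through the groups. Of 28 pairs of members, 25 had a positive Pearson r of log2(normalized count + 1), with a median of 0.26. With each group's mean removed, 13 of 28 were positive and the median was -0.09. The highest pair, Snap25 with Syt4, had r = 0.82 over the 16 cells and 0.20 with group means removed. Syt1 with Vamp2 had 0.55 and 0.50. These cells share culture, title and depth, and the correlations are a description.

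Among 1588 abundant symbols above 0 in at least 12 of the 16 GABAergic neurons, the one whose pattern was most like Snap25 was Scn1a, a sodium channel subunit (Pearson r = 0.87 over 16 cells). Syt4 was most like Rangap1 (0.94), an activator of the GTPase Ran, and next Mapk8ip3 (0.85). Cplx1 was most like Sncb, which encodes beta-synuclein (0.89), and next Chpf (0.88). Sv2a was most like Lamp1, a lysosomal membrane protein (0.88), Vamp1 like Ndufa3 (0.80), Syt1 like the adhesion molecule Cntn1 (0.80), Vamp2 like Cops7a (0.74) and Stx1a like Ankrd34a (0.62). These likenesses also hold the differences between groups.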

How the data were processed

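Per the labels' protocols, aspirated RNA was amplified by SMART-Seq v4 and Nextera XT libraries were read from both ends. The submitters' processing notes name STAR 2.4.0, FastQC, Picard, SAMtools, DESeq2 and rn6. No counter, annotation or strand setting is given in the sources used here. The authors deposited 1 signal per gene and cell, which the table's own name gives as DESeq2-normalized expression. In each cell 100% of values lay within 0.05 of a whole multiple of 1 step, which gave back whole reads and depth. No count test was run on them, because cells of 1 sample are not replicates. Of 34976 rows 18376 have no symbol, and the highest row was kept for each of 16245 symbols.

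Differences of mean log2(value + 1) were computed over symbols above 0 in at least 3 cells of a comparison, and called at 2-fold. The members, gene lists and rules were chosen with earlier results of these data known. All 8 members are named with their values; of each other list at most the 2 highest and 2 lowest differences were eligible for naming, among genes detected in 4 or more cells on the higher side. List genes without a matching symbol (such as Chga and Cpe) were not analysed here. Likeness was Pearson's r over the 16 GABAergic cells. Motifs were searched in RefSeq promoters (GRCr8), a build other than rn6, used for sequence only. Scripts were tested on simulated data. Alternatives were pseudocounts of 10 and 0.1, scaling to 1 total or upper quartile, medians or ratios of means, summed rows, thinning, cells titled S, and leaving out cells. Leaving out the glia-cultured cells titled P was chosen after seeing the data. Calculations used Python 3.11.15 with numpy 2.4.6 and pandas 2.3.3; scipy 1.17.1 gave intervals and matplotlib 3.10.9 the plots.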

Additional observations from a re-analysis of the deposited data

Results flagged for a closer look

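In 31 sets of a member's values in 1 group, 4 held a cell far from the others by Dixon's test at the 95% level. The test flags about 1 in 20 sets of normally distributed values, a rate that does not hold for sets with zeros. A set with 1 cell above 0 and the others at 0 is flagged whatever the value, as for Vamp1, Stx1a and Syt4 below. Vamp1 had 949 normalized counts in pyramidal cell 4 and 0 in the other 4 pyramidal cells. That cell also carried 103570.0 normalized counts over 11 oligodendrocyte markers, and the part of these in its Vamp1 value was not tested. Stx1a had 590.0 in purified cell 2 and 0 in the other 4 purified cells. Syt4 had 2.47 in purified cell 1, which is 2 reads, and 0 in the other 4. Sv2a had 6101 in glia-cultured GABAergic cell 2, next to 3147 in the cell nearest to it.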

How the results depend on the processing

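Of 656 recomputed differences of single members, 634 moved by less than 1 SD between cells. Many of the 656 could not move further. Those with 1 cell left out cannot shift by 1 SD in groups this small. Summed rows equal the main value, because each member has 1 row. The count of 634 is therefore no measure of stability. Among the 656, 2 called differences changed sign, both with cells titled S only in the pyramidal comparison (Snap25 0.10, Stx1a -0.28). There the median over members was -1.04 with 0 members higher, and it was -1.58 as a ratio of group means. The median for purified against glia-cultured neurons was -1.69 and -2.56 with pseudocounts of 10 and 0.1, -2.58 at a common upper quartile, -2.50 as a median over cells, -1.53 as a ratio of means and -2.97 with cells titled S. For OCM-treated against purified neurons it was 1.48 at a common upper quartile (5 members higher) and 0.27 as a ratio of means, with 1 member lower, Vamp1. For OCM-treated against glia-cultured neurons it was -1.72 without the glia-cultured cells titled P, an alternative chosen after seeing the data. A common upper quartile moved the median of all symbols by -0.55, -0.45, 0.42 and -0.08 in the order of the comparisons, and a common total moved that of OCM-treated against glia-cultured neurons by 0.10. At a common upper quartile the members' median minus that of all symbols was -3.40, -0.00091, -0.34 and -0.43.

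With any 1 cell left out, the medians ran from -6.58 to -3.98 (pyramidal), -2.95 to -1.68 (purified against glia-cultured), 0.49 to 0.94 (OCM-treated against purified) and -1.74 to -1.05 (OCM-treated against glia-cultured). Members higher ran from 0 to 1 in the pyramidal comparison. Members lower ran from 0 to 1 for OCM-treated against purified neurons, the 1 appearing without OCM-treated cell 1, 2 or 5 or purified cell 1, 2 or 4. The share of all symbols past 2-fold was not recomputed under these alternatives, so the counts of members have no background here. Thinning took the median of members detected in purified neurons to 5. No paired analysis was possible because the labels pair no cells across groups and no test was run. Depth limits what a 0 means to the floor of 3 reads, 0.909 to 17.7 normalized counts.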
